A study of Mus musculus with 8 samples.

Results

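The MHC class II antigen presentation genes were examined in RNA sequencing libraries of splenic CD8+ T cells. They were taken by symbol from the deposited gene count table: H2-Aa, H2-Ab1, H2-Eb1, Cd74, H2-DMa, H2-DMb1, H2-DMb2, H2-Oa, H2-Ob and Ciita, which are 10 of its 55291 genes. All 10 were in the table and passed the filter on low counts that left 16630 genes for testing.

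MHC class II molecules are pairs of an alpha and a beta chain that present peptides from the endosomal pathway to CD4 T cells. The invariant chain, Cd74, holds the groove closed until the endosome, where the DM heterodimer exchanges the remaining fragment for peptides and the DO heterodimer restrains DM. Their transcription needs the coactivator CIITA on a promoter complex of RFX, NF-Y and CREB factors. In the spleen, B cells, dendritic cells and macrophages are the main class II cells, and mouse T cells are generally held to express little of it.

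The study compared 4 libraries titled ATF4 overexpression, genotype ATF4 Tg/Tg, with 4 libraries labelled WT. Every title names the cells as naïve CD8 T cells. ATF4 is a transcription factor that acts in the integrated stress response. The cells came from spleens of naïve mice and were enriched with a magnetic mouse CD8+ T cell kit, with no flow sort named in the labels. The design text names the mice as ATF4Tg/Tg or E8IcreATF4Tg/Tg, so WT stands for the sample label alone. Which of these mice gave the WT libraries is not stated. E8I is an enhancer of the Cd8a locus, used to drive Cre in CD8 T cells. The labels give no age and leave unsaid whether each library stems from its own mouse. The p-values therefore cover library-to-library spread, part of which may be technical.

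Libraries held 93478686 to 125974143 estimated counts. Replicates 1 and 2 of both groups formed one set and replicates 3 and 4 another, which are also written differently in the column names. In 4 libraries (WT replicates 1 and 4, ATF4 overexpression replicates 1 and 2) low counts were scarce, with 357 to 525 genes at 3 to 5 counts against 911 to 1122 in the others. The CD8 T cell markers were abundant in every library, with Cd8a, Cd8b1 and Cd3e summing to 3036 to 3281 CPM (the count over the scaled library size, times 1000000) in WT and 2464 to 2531 CPM in ATF4 overexpression. Atf4 itself had 285, 308, 165 and 165 CPM in WT replicates 1 to 4 and 445, 427, 228 and 212 CPM in ATF4 overexpression. The groups overlapped, and the log2 fold change of 0.51 ± 0.31 (SE) was not called (adjusted p = 0.367). Within each replicate number, however, the ATF4 overexpression library was the higher one, and with the replicate number as a block Atf4 was called at 0.48 ± 0.05 (SE, adjusted p = 0.000219). The labels do not state that pairing, which was taken from these data. With the block 27.2% of all tested genes were called in either direction, against 14.1% without it.

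Promoter sequence was read for the class II genes that have an entry in the RefSeq promoter table of GRCm38.p6, which holds 250 bases before and 50 bases after each start. Of the 10 genes, 7 matched. The other 3 are H2-Ab1, Cd74 and Ciita. The stretches below are shown because each holds a Y box, an X box core or both, sites at which NF-Y and RFX are known to bind in class II promoters, in genes that stood on opposite sides of the comparison. They run 5′ to 3′ on the strand of the gene, with capitals for the Y box (TGATTGG), the X box core (CNNATGATG) or the cyclic AMP response element (TGACGTCA).
H2-Aa, chr17:34287867-34287926, minus strand: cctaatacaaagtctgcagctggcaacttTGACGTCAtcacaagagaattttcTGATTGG
H2-Eb1, chr17:34305753-34305812, plus strand: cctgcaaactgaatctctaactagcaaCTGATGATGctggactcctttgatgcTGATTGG
H2-Oa, chr17:34092281-34092340, plus strand: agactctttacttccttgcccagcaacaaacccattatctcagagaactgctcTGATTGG
H2-Ob, chr17:34238793-34238852, plus strand: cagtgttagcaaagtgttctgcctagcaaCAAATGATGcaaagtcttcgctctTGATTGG
H2-DMb1, chr17:34153093-34153122, plus strand, X box only: cctagtaaCTGATGATGctaggctgattca
H2-DMb2, chr17:34145122-34145151, plus strand, X box only: cctattaaCCGATGATGctaggctaagtca

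The Y box letters were found on either strand in 6 of the 7 matched genes, H2-DMa being without them, and in 7.82% of all 32851 windows. In H2-DMb1 and H2-DMb2 they start 63 and 92 bases before the RefSeq start, past the end of the stretches shown. Both of these stretches lie inside the gene spans of the GENCODE M21 annotation. The H2-DMb1 stretch overlaps an annotated exon of its gene, as does that of H2-Oa. The X box core was found in 4 (H2-Eb1, H2-DMb1, H2-DMb2 and H2-Ob) and in 2.75% of windows. Both were held by 57 windows in all, 0.174%. The cyclic AMP response element was found in H2-Aa alone of the matched genes, and in 1.79% of windows. The letters TGATGNAA, a core of the composite element that ATF4 binds with C/EBP factors, were found in H2-Ob alone, where TGATGCAA starts 79 bases before the gene start and overlaps the X box core. They were present in 3.97% of windows. These letters were chosen after the promoters had been read, and a match is a description of sequence, not of binding.

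Across the 10 genes, 7 were higher in every ATF4 overexpression library than in any WT library, and 3 were lower in every one. The call rule was an adjusted p (Benjamini-Hochberg, over all tested genes) below 0.05. By that rule 6 were called higher, where 9.16% of all tested genes were, and 2 were called lower, where 4.89% were. Groups that do not overlap were seen for 13.3% of all tested genes with ATF4 overexpression above, and for 8.66% with it below. The median log2 fold change was 2.06 over the 10 genes and -0.02 over all tested genes. With the replicate number as a block, 7 were called higher, against 13.7% of all tested genes, and 3 lower, against 13.5%.

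**Figure D1:**
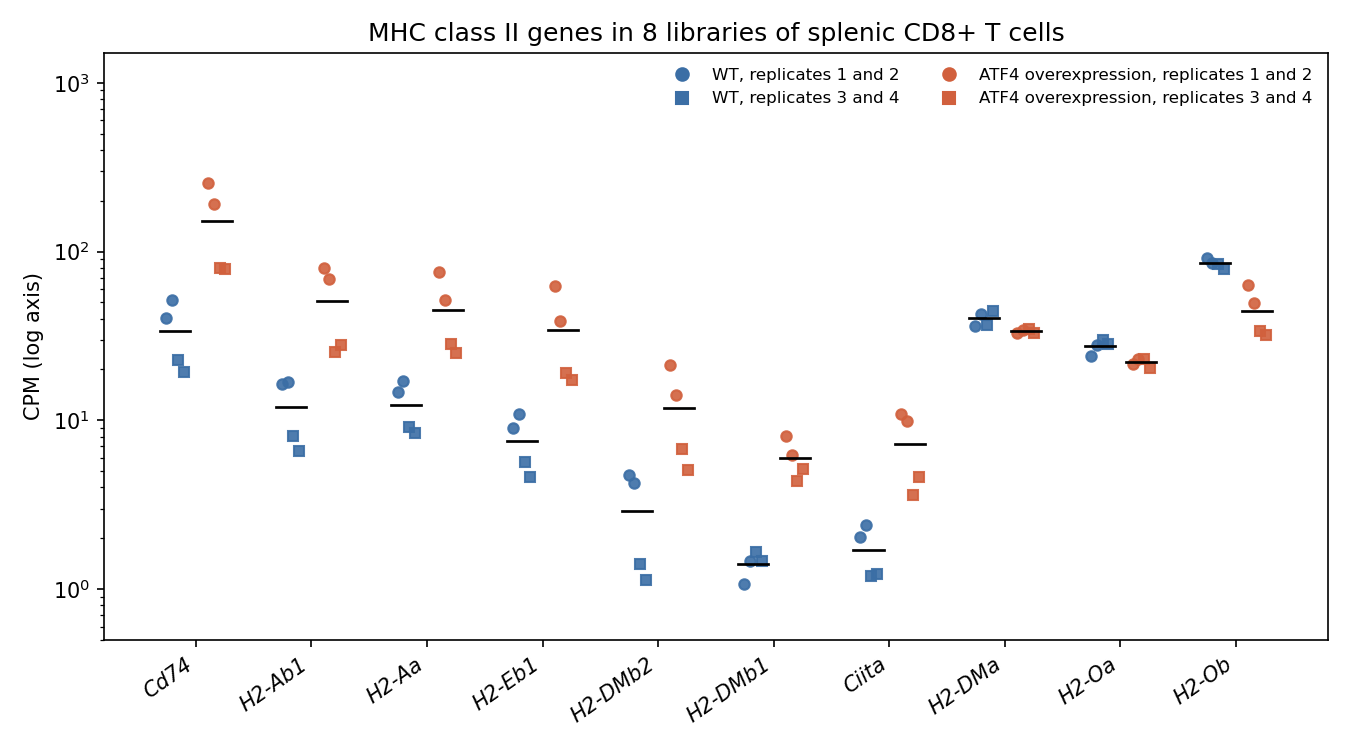
Level of each class II gene in each library, in CPM on a log axis, with blue for WT, orange for ATF4 overexpression, circles for replicates 1 and 2, squares for replicates 3 and 4, and a bar for the group mean (n = 4). For 7 genes the ATF4 overexpression points lie above all WT points, and for H2-DMa, H2-Oa and H2-Ob they lie below.

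The chains of the classical class II molecules rose together. H2-Aa (ENSMUSG00000036594.15, chromosome 17, 34282744 to 34287823, minus strand, GENCODE M21 on GRCm38), the alpha chain of I-A, had 14.7, 17.1, 9.16 and 8.39 CPM in WT replicates 1 to 4 and 75.9, 51.6, 28.3 and 25.1 CPM in ATF4 overexpression. Every ATF4 overexpression library was above every WT library, and in both groups replicates 1 and 2 were the higher pair. The means were 12.3 ± 4.25 and 45.2 ± 23.6 CPM (SD, n = 4), a log2 fold change of 1.87 ± 0.39 (SE, adjusted p = 0.0132).

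H2-Ab1 (ENSMUSG00000073421.6, chromosome 17, 34257689 to 34269419), the beta chain of I-A, had 16.5, 16.9, 8.05 and 6.54 CPM in WT and 79.9, 69.0, 25.5 and 28.0 CPM in ATF4 overexpression. The groups did not overlap, and replicates 1 and 2 were again the higher pair in each. Its log2 fold change was 2.08 ± 0.48 (SE, adjusted p = 0.0234). The call was lost without WT replicate 3 (adjusted p = 0.0743), WT replicate 4 (0.0552) or ATF4 overexpression replicate 2 (0.057).

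H2-Eb1 (ENSMUSG00000060586.11, chromosome 17, 34305867 to 34316674), the beta chain of I-E, had 9.02, 10.9, 5.63 and 4.63 CPM in WT and 62.6, 38.7, 19.1 and 17.2 CPM in ATF4 overexpression. Again all ATF4 overexpression libraries lay above all WT libraries. The log2 fold change was 2.19 ± 0.46 (SE, adjusted p = 0.0134), and without WT replicate 3 the adjusted p was 0.0503. H2-Ea, which encodes the alpha partner of I-E and is disrupted in some inbred strains, was listed at 0 in all libraries.

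Cd74 (ENSMUSG00000024610.15, chromosome 18, 60803848 to 60812652), the invariant chain, reached the highest CPM of the 10 genes in ATF4 overexpression. It had 40.6, 51.5, 22.9 and 19.3 CPM in WT and 255.6, 192, 80.1 and 79.1 CPM in ATF4 overexpression. The groups did not overlap, with replicates 1 and 2 high in each. The log2 fold change of 2.18 ± 0.49 (SE) was called (adjusted p = 0.022), and the call was lost without WT replicate 3 (0.0693), WT replicate 4 (0.0551) or ATF4 overexpression replicate 2 (0.06).

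Ciita (ENSMUSG00000022504.10, chromosome 16, 10480059 to 10528418), the coactivator itself, was at low levels. It had 2.02, 2.39, 1.20 and 1.23 CPM in WT and 10.9, 9.89, 3.601 and 4.63 CPM in ATF4 overexpression. The groups did not overlap, replicates 1 and 2 were the higher pair in each, and the log2 fold change was 2.08 ± 0.41 (SE, adjusted p = 0.00742). The call held without any single library (adjusted p from 0.00364 to 0.0268).

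The DM heterodimer was split between its chains. H2-DMb1 (ENSMUSG00000079547.4, chromosome 17, 34153072 to 34160230), a beta chain gene, had 1.07, 1.46, 1.65 and 1.46 CPM in WT and 8.08, 6.26, 4.38 and 5.18 CPM in ATF4 overexpression. The groups did not overlap, and within WT the 2 sets of libraries were not separated as they were for the classical chains, since replicates 2 and 4 were alike. Its log2 fold change of 2.08 ± 0.26 (SE, adjusted p = 0.000663) had the smallest p of the 10 genes. It was called under all 19 alternatives in which it was tested.

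H2-DMb2 (ENSMUSG00000037548.15, chromosome 17, 34143307 to 34151555), the second beta chain gene, had 4.77, 4.24, 1.41 and 1.14 CPM in WT and 21.3, 14.2, 6.80 and 5.05 CPM in ATF4 overexpression. All ATF4 overexpression libraries were above all WT libraries, but the lowest of them stood close to WT replicate 1. The log2 fold change of 2.04 ± 0.60 (SE) was not called (adjusted p = 0.054). With the replicate number as a block it was called, at 2.08 (adjusted p = 2.7e-05).

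The 2 beta chain genes are near copies, so their separate values are uncertain. Their annotated transcripts are 94.4% identical over 1255 aligned bases, and 22.7% of the 50-base windows of H2-DMb1 transcripts also occur in H2-DMb2. The share of their joint counts assigned to H2-DMb2 ranged from 43.8% to 81.6% in WT and from 49.4% to 72.5% in ATF4 overexpression, which overlap. Summed as 1 gene, they had 5.84, 5.70, 3.06 and 2.60 CPM in WT and 29.4, 20.4, 11.2 and 10.2 CPM in ATF4 overexpression. The groups of the sum did not overlap, and it was called at a log2 fold change of 2.05 (adjusted p = 0.0081), a test added after seeing the data.

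H2-DMa (ENSMUSG00000037649.10, chromosome 17, 34119541 to 34139101), the alpha chain of DM, did not move with its partners. It had 36.4, 42.9, 36.9 and 44.7 CPM in WT and 33.0, 34.3, 34.6 and 33.1 CPM in ATF4 overexpression. Every ATF4 overexpression library was below every WT library, by a small margin. The log2 fold change of -0.25 ± 0.09 (SE) was not called (adjusted p = 0.0848), while the replicate block gave -0.25 with an adjusted p of 0.0324. Of the H2-DMa windows, 8.43% are antisense to Brd2, and the sources used here do not say whether reads were counted by strand.

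The DO chains were lower. H2-Oa (ENSMUSG00000024334.9, chromosome 17, 34092340 to 34095234), the alpha chain, had 24.1, 28.0, 30.1 and 28.4 CPM in WT and 21.6, 23.1, 23.1 and 20.4 CPM in ATF4 overexpression. The groups did not overlap but WT replicate 1 was close to the ATF4 overexpression libraries. The log2 fold change was -0.33 ± 0.09 (SE, adjusted p = 0.0449), a call near the threshold that was lost under other scaling (0.0561 with relative log expression factors, 0.0742 with upper-quartile factors) and without any library other than WT replicate 1, with adjusted p up to 0.141. Windows antisense to BC051537 made up 15.5% of those of H2-Oa.

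H2-Ob (ENSMUSG00000041538.16, chromosome 17, 34238903 to 34254414), the beta chain of DO, fell most. It had 91.7, 85.8, 84.6 and 78.6 CPM in WT and 62.9, 49.7, 33.6 and 32.0 CPM in ATF4 overexpression. The groups did not overlap, WT libraries lay close together, and in ATF4 overexpression replicates 3 and 4 were the lower pair. Means were 85.2 ± 5.38 and 44.6 ± 14.6 CPM (SD, n = 4), a log2 fold change of -0.93 ± 0.20 (SE, adjusted p = 0.012), called under all 20 alternatives.

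Each of the 10 genes gave p = 0.0286 in a two-sided exact permutation test of its mean log2 CPM, the smallest value that the 70 assignments of 4 against 4 libraries allow. Groups that do not overlap always give this value, so the test only restates that separation. Such separation was seen for 13.3% of all tested genes with ATF4 overexpression above and for 8.66% with it below. The direction of each gene was the same under every alternative run. The calls of the higher genes were less stable: without the libraries in which low counts were scarce, which left WT replicates 2 and 3 against ATF4 overexpression replicates 3 and 4, and so both library sets against the second set alone with no term for the set, H2-DMb1 alone was called higher, at 1.62 (adjusted p = 0.0261), and H2-Ob alone lower, against backgrounds of 7.29% and 1.94%. The classical chains and Cd74 were then at log2 fold changes of 1.02 to 1.14 (adjusted p from 0.0962 to 0.135), and Ciita at 1.19 (0.148). In that unbalanced fit Atf4 itself stood at -0.11, and the lower folds cannot be told apart from the difference between the sets. H2-Ob was then at -1.38 (adjusted p = 0.00208).

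**Figure D2:**
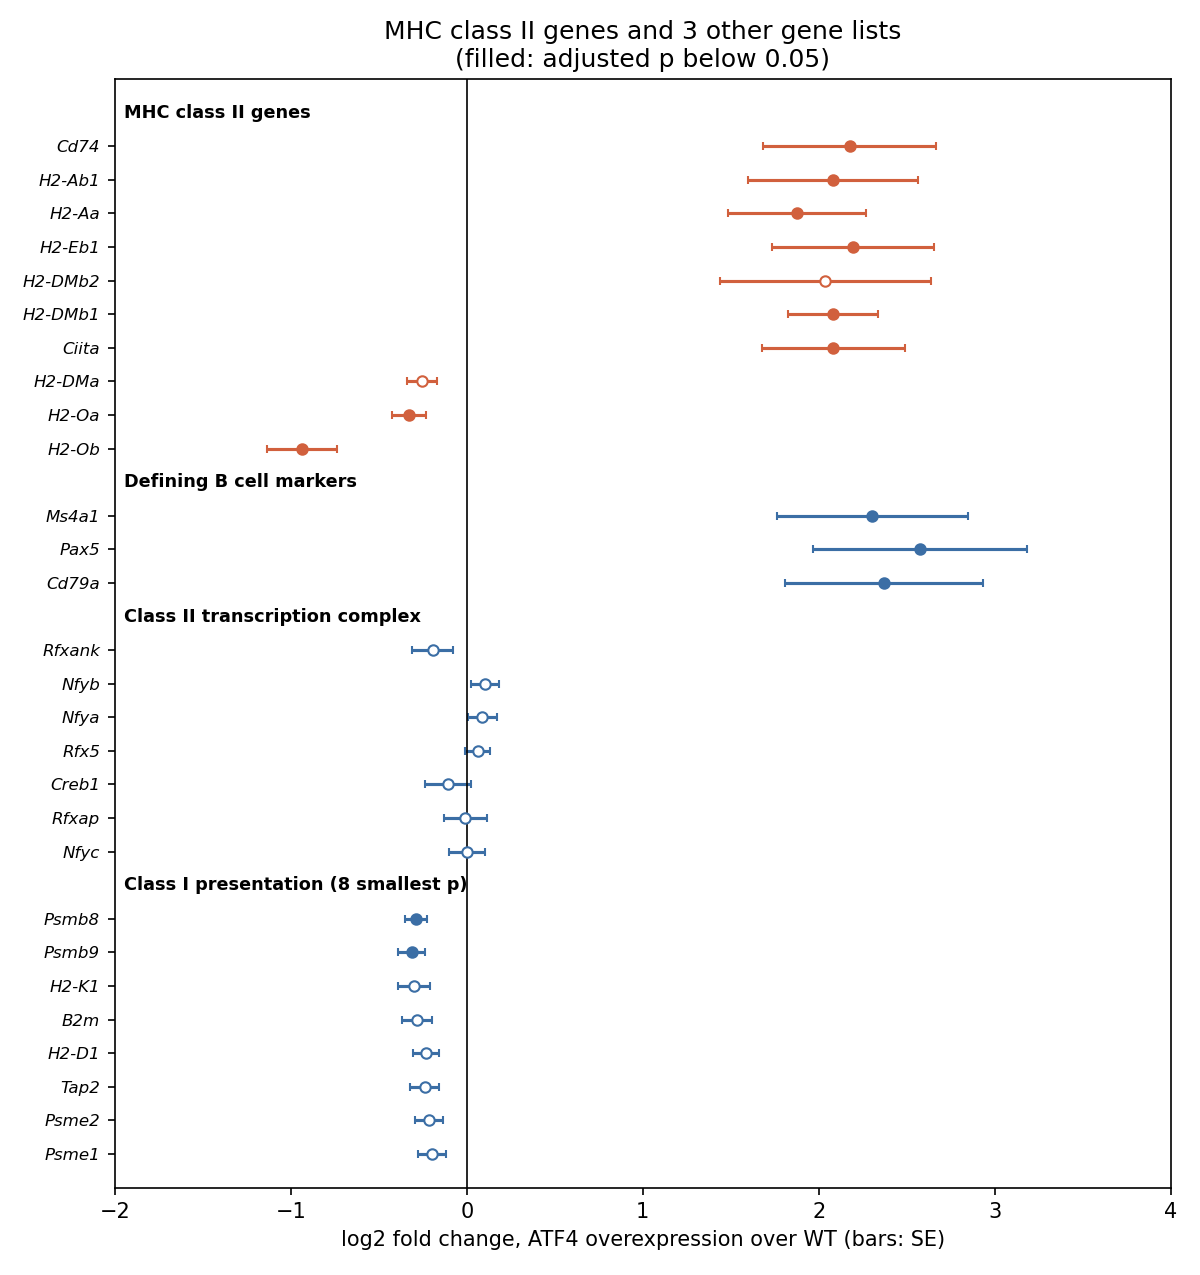
Log2 fold change of ATF4 overexpression over WT with its SE for the class II genes (orange), the 3 defining B cell markers, the class II transcription complex and the 8 class I presentation genes with the smallest p (blue). Filled points passed an adjusted p below 0.05, and 7 class II genes lie between 1.87 and 2.19 while H2-DMa, H2-Oa and H2-Ob lie below 0.

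Library sets were compared within each group's contrast. Replicates 1 and 2 alone gave 7 of the 10 genes called higher, with a background of 6.75%, and 1 lower, with a background of 3.07%. Replicates 3 and 4 alone gave 7 called higher and 2 called lower, where 14.3% and 8% of tested genes were. In the first set the log2 fold changes were 2.03 for H2-Aa, 2.19 for H2-Ab1, 2.38 for H2-Eb1, 2.31 for Cd74 and 2.26 for Ciita. In the second set they were 1.61, 1.87, 1.83, 1.92 and 1.76 in that order. H2-Ob stood at -0.62 in the first set and -1.31 in the second.

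A term for the difference of these contrasts between sets was called for 0 of the 10 genes by edgeR, where 0.998% of all tested genes were. It stood at an unadjusted p below 0.05 for 2 of them. The contrast of H2-DMb1 differed by -0.88 ± 0.36 (SE, second set minus first, adjusted p = 0.35), and that of H2-Ob by -0.66 ± 0.15 (SE, adjusted p = 0.0928). The H2-Ob term was called without ATF4 overexpression replicate 2 (adjusted p = 0.0317) and with no filter on low counts (7.41e-05).

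Levels of different genes were compared per kilobase of the union of annotated exons. In WT, Cd74 had 20.01 ± 9.03, H2-Oa 19.7 ± 1.78, H2-Ob 15.8 ± 1.00 and H2-DMa 11.7 ± 1.21 CPM per kilobase (SD, n = 4). The range of Cd74, 11.5 to 30.7, covered those of H2-Oa and H2-Ob and overlapped that of H2-DMa. A clear step below came H2-Ab1 with 4.67 ± 2.12, H2-Eb1 with 3.88 ± 1.499 and H2-Aa with 3.25 ± 1.12, which overlapped each other. H2-DMb2 (1.65 ± 1.08), H2-DMb1 (0.840 ± 0.144) and Ciita (0.179 ± 0.0623) closed the order, with only Ciita apart from its neighbours. So in WT the accessory genes H2-DMa, H2-Oa and H2-Ob lay above the I-A and I-E chains that their products serve.

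In ATF4 overexpression the order changed. Cd74 stood first at 90.4 ± 51.9 CPM per kilobase, above the range of the others. H2-Ab1 (19.7 ± 10.9), H2-Eb1 (17.7 ± 10.9), H2-Oa (15.7 ± 0.930), H2-Aa (11.9 ± 6.22), H2-DMa (9.79 ± 0.239), H2-Ob (8.28 ± 2.72) and H2-DMb2 (6.77 ± 4.27) followed, with each one's range overlapping its neighbour's. This order differed between the library sets: in replicates 3 and 4 H2-Oa (16.4 and 14.5) lay above H2-Ab1 (9.92 and 10.9) and H2-Eb1 (9.84 and 8.86), and H2-DMa (10.04 and 9.60) above H2-Aa (7.46 and 6.60). H2-DMb1 had 3.55 ± 0.954, within the range of H2-DMb2 or just below it, and Ciita 0.760 ± 0.384, below all others. Length matters for this order: by longest transcript H2-Ob led in WT with 31.9 CPM per kilobase, ahead of Cd74 with 23.8.

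Ratios within a library, all per kilobase, were steady among the classical genes. H2-Aa over H2-Ab1 ran from 0.506 to 0.868, Cd74 over H2-Ab1 from 3.77 to 4.89, and Ciita over H2-Ab1 from 0.0330 to 0.0505 over all 8 libraries. These ratios overlapped between the groups. For DM, H2-DMa over both beta chain genes was 3.13, 3.77, 5.99 and 8.52 in WT and 0.562, 0.842, 1.55 and 1.61 in ATF4 overexpression. The DM ratios of the groups did not overlap, with an alpha chain excess in WT and values around parity in ATF4 overexpression. By longest transcript they were 4.56 to 12.3 in WT and 0.817, 1.22, 2.24 and 2.33 in ATF4 overexpression. The groups were again apart, but parity depended on the length taken. For DO, H2-Ob over H2-Oa had a mean of 0.814 ± 0.125 in WT and 0.529 ± 0.175 in ATF4 overexpression (SD, n = 4), with overlapping ranges. H2-DMa over H2-Oa, the pair of alpha chains, stayed between 0.501 and 0.663 in all libraries.

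**Figure D3:**
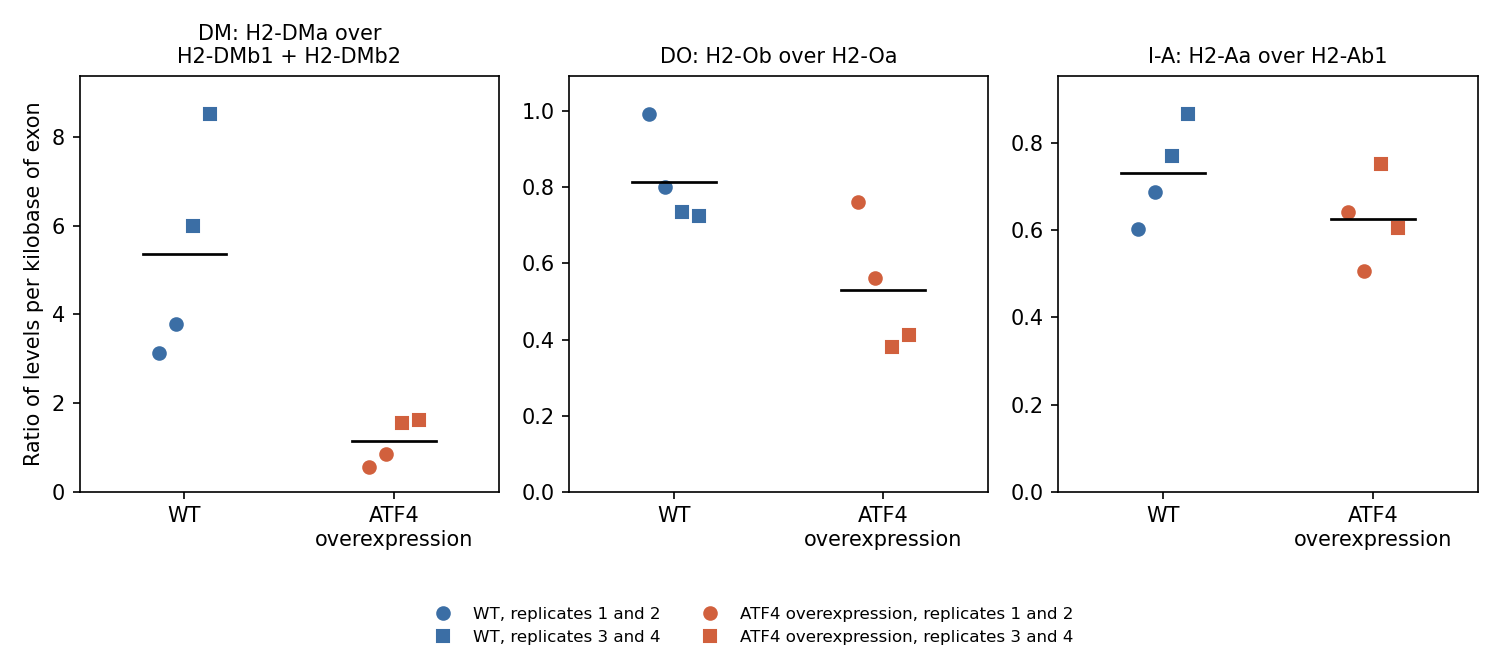
Ratio of the levels per kilobase of exon of the chains of DM, DO and I-A in each library, with a bar for the group mean (n = 4). The DM ratio is 3.13 to 8.52 in WT and 0.562 to 1.61 in ATF4 overexpression, while the I-A ratio of the groups overlaps.

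Many markers of other spleen cells were also higher in ATF4 overexpression. Beside the counts of this list and those that follow, 9.16% of all tested genes were called higher and 4.89% lower. Of 19 B cell markers, 10 were called higher and 1 lower (median log2 fold change 2.19). Among them Cd79a, Ms4a1 and Pax5, which define B cells, were all called higher and summed to 20.2, 23.4, 5.54 and 6.83 CPM in WT and to 119.97, 90.7, 41.5 and 43.1 CPM in ATF4 overexpression. Replicates 1 and 2 were the higher pair in each group, as for the classical chains, Cd74 and Ciita. The whole B cell list summed to 719.6 to 927 CPM in WT and 707 to 1140 CPM in ATF4 overexpression. Most of that sum was Ighm, which encodes the IgM heavy chain. It averaged 624 CPM in the WT libraries and 582 CPM in the others and was not called (log2 fold change -0.10, adjusted p = 0.721). Among other genes of the list above 20 CPM in WT, Cd72 (-0.34, 0.195), Cd79b (0.48, 0.0911) and Pou2af1 (0.02, 0.955) were not called either, while Ighd was called higher. No gene of the list was at 0 in all WT libraries.

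The genes of the B cell list with the smallest p were Blk, a B cell kinase (log2 fold change 3.06), Cxcr5, a follicle homing receptor also found on some T cells (-1.36), and Ighd, the IgD heavy chain (1.08). The summed CPM of H2-Aa, H2-Ab1, H2-Eb1 and Cd74 over that of the 3 defining B cell markers was 3.99, 4.12, 8.26 and 5.70 in WT and 3.95, 3.88, 3.69 and 3.46 in ATF4 overexpression. By this measure, added after seeing the data, class II RNA per B cell marker RNA was not higher in any ATF4 overexpression library than in any WT library, with replicate 1 of both groups nearly equal. Over the whole B cell list the ratio ran the other way, from 0.0515 to 0.104 in WT and from 0.198 to 0.416 in ATF4 overexpression. In such bulk RNA, fewer cells of a type and less RNA per cell cannot be told apart.

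**Figure D4:**
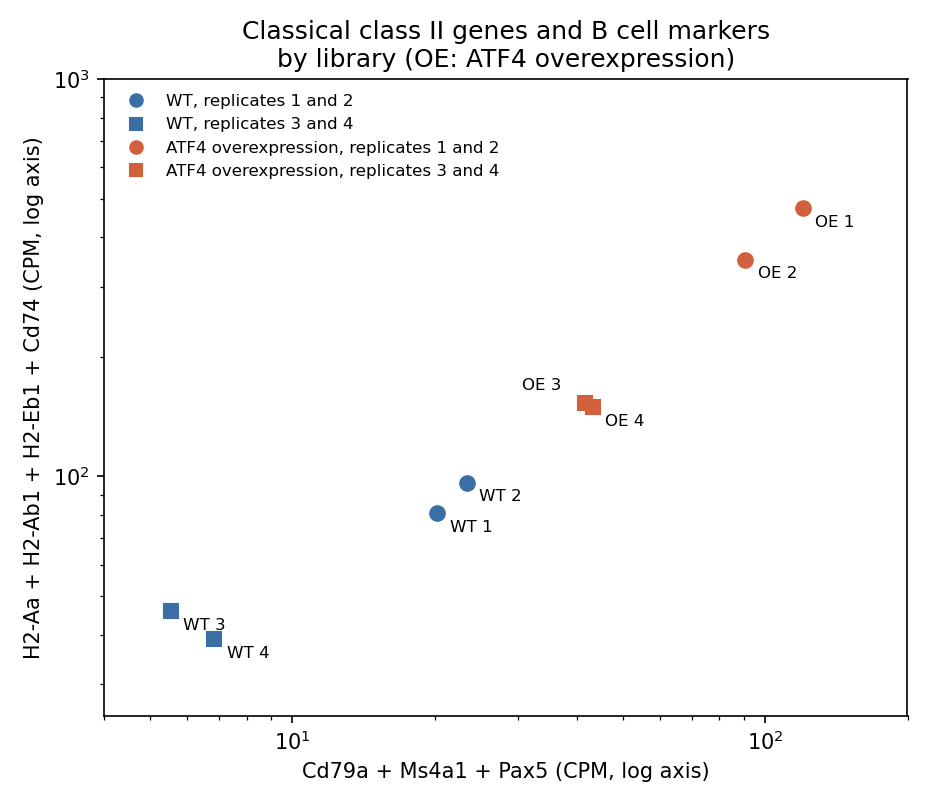
Summed CPM of H2-Aa, H2-Ab1, H2-Eb1 and Cd74 against the summed CPM of the defining B cell markers Cd79a, Ms4a1 and Pax5, both on log axes, 1 point per library (OE: ATF4 overexpression). WT replicates 3 and 4 are lowest on both axes and ATF4 overexpression replicates 1 and 2 are highest.

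Dendritic cell markers were low: of 10 tested, 2 were called higher, Flt3 (2.33), a receptor of dendritic cell precursors, and Cadm1 (3.22), while Itgax (1.58, adjusted p = 0.0579) was not. The list summed to 4.67 to 14.6 CPM in WT and 21.4 to 37.5 CPM in ATF4 overexpression. The defining Zbtb46, Xcr1, Clec9a and Siglech summed to 0.922 to 1.22 CPM and 1.16 to 3.87 CPM, none of them called, with Xcr1 at 0 in WT replicates 1, 3 and 4. Macrophage and monocyte markers were called higher in 10 of 15 and lower in 0, led by the complement gene C1qb (3.06), Vcam1 (3.15) and the growth factor receptor Csf1r (2.73). Their defining genes Csf1r, Adgre1, C1qa and Lyz2 summed to 8.72, 6.93, 49.8 and 45.8 CPM in WT and 63.4, 56.4, 196 and 203 CPM in ATF4 overexpression. In this sum replicates 3 and 4 were the higher pair in both groups, the reverse of the classical class II genes. Most of it in those replicates was Lyz2, with 43.4 and 40.8 CPM in WT and 158 and 164 CPM in ATF4 overexpression. Lyz2 itself was not called (log2 fold change 2.08, adjusted p = 0.257). Of the other defining genes, Csf1r had the same higher pair in both groups, Adgre1 in WT only and C1qa in neither.

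Other lists moved as well. Markers called higher were 5 of 6 for neutrophils (S100a8, Ltf and S100a9 first), 3 of 6 for NK cells (Klra9, Tyrobp and Ncr1), 3 of 4 for CD4 T cells (Zbtb7b, Cd40lg and Cd4), 7 of 8 for erythroid cells (Klf1, Car1 and Hba-a2) and 3 of 5 for platelets (Itga2b, Gp9 and Gp1ba), and none was called lower. Their summed levels did not overlap between groups, from 0.734 to 5.59 against 25.3 to 97.8 CPM for neutrophils, 15.4 to 55.1 against 82.7 to 207 CPM for NK cells, 7.37 to 14.6 against 33.4 to 47.6 CPM for CD4 T cells, 4.85 to 10.2 against 59.5 to 233 CPM for erythroid cells and 3.54 to 4.59 against 8.51 to 15.9 CPM for platelets. Unlike the classical class II genes, none of these sums had replicates 1 and 2 as the higher pair in both groups. Gp9 was at 0 in every WT library and at 0.179 to 0.301 CPM in ATF4 overexpression, so it could not be called lower. Gp1ba was low too, at 0.041 to 0.179 CPM in WT. CD8 T cell markers were called lower in 6 of 10 and higher in 0, led by Cd8b1 (-0.39), Cd3d (-0.53) and Cd8a (-0.36). The part of these cells in the class II differences was not tested.

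The DNA-binding partners of CIITA were level. Of the 7 genes of the class II transcription complex, 0 were called by edgeR in either direction, and their median log2 fold change was 0.00. The 3 with the smallest p were the RFX subunit Rfxank (-0.19, adjusted p = 0.346) and the NF-Y subunits Nfyb (0.10, 0.502) and Nfya (0.09, 0.578). Of 5 regulators of Ciita, 4 were called higher. Irf8, a lineage factor of B and myeloid cells, rose from 11.2 ± 1.58 to 39.7 ± 8.07 CPM (SD, n = 4), a log2 fold change of 1.83 (adjusted p = 8.63e-05). Spi1, which encodes PU.1, rose by 2.47 and Irf4 by 1.44 on the log2 scale.

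The other regulators changed less or were not called. Prdm1, which encodes the Ciita repressor BLIMP-1, was called higher at 1.02, and the interferon mediator Irf1 (-0.15) was not called. Of 11 genes induced by interferon gamma, a cytokine that induces Ciita, 0 were called by edgeR, with a median of -0.05. Cxcl10 (1.12, adjusted p = 0.0879), Gbp4 (-0.17, 0.177) and Gbp5 (-0.17, 0.179) had the smallest p.

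Endosomal proteases and the thiol reductase, which prepare peptides and trim the invariant chain, were called higher in 5 of 7 genes and lower in 1. Ctsh (cathepsin H) rose from 2.05 ± 0.528 to 9.85 ± 1.34 CPM, a log2 fold change of 2.27. Lgmn (legumain) rose by 1.59 and Ctsl (cathepsin L) by 0.86. Ctss, cathepsin S, the main invariant chain protease of B cells and dendritic cells, fell by 0.33 (adjusted p = 0.0357), from 161 ± 16.9 to 128 ± 8.95 CPM.

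Genes of class II surface turnover were low and higher in ATF4 overexpression. Of 4 tested genes, 3 were called higher: Marchf1 (2.11) and Marchf8 (2.77), ubiquitin ligases that remove class II molecules from the surface, and Cd83 (1.12), which opposes Marchf1. H2-Eb2, a neighbour of H2-Eb1, was not called (1.56 ± 0.69, SE, adjusted p = 0.184). Of 4 costimulatory ligands, 0 were called higher and Cd86, the CD28 ligand, fell by 1.13 from 18.6 to 8.48 CPM. Cd40 (1.64, adjusted p = 0.101) and Cd80 (2.46, 0.296) were not called.

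The class I pathway, which T cells themselves use, did not rise with the classical class II genes. Of its 16 genes, 0 were called higher and 2 lower, with a median log2 fold change of -0.19. Among all tested genes 9.16% were called higher and 4.89% lower, and counts from 16 genes are too few to be set apart from those shares. The 2 were the immunoproteasome subunits Psmb8 (-0.29, adjusted p = 0.0129) and Psmb9 (-0.31, 0.0213), and the class I heavy chain H2-K1 followed (-0.30, 0.0517).

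On chromosome 17 both patterns lay side by side. A span of 249.1 kb from H2-Oa to H2-Eb2 holds 8 of the 10 genes and 7 other tested genes. H2-DMa and the DM beta genes are neighbours, yet H2-DMa stood at -0.25 and H2-DMb2 at 2.04. The class I genes Psmb9, Tap1, Psmb8 and Tap2 lie between H2-DMb1 and H2-Ob, and their log2 fold changes ran from -0.31 to -0.14. H2-Ob, at -0.93, ends 3.275 kb before H2-Ab1, at 2.08, starts.

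**Figure D5:**
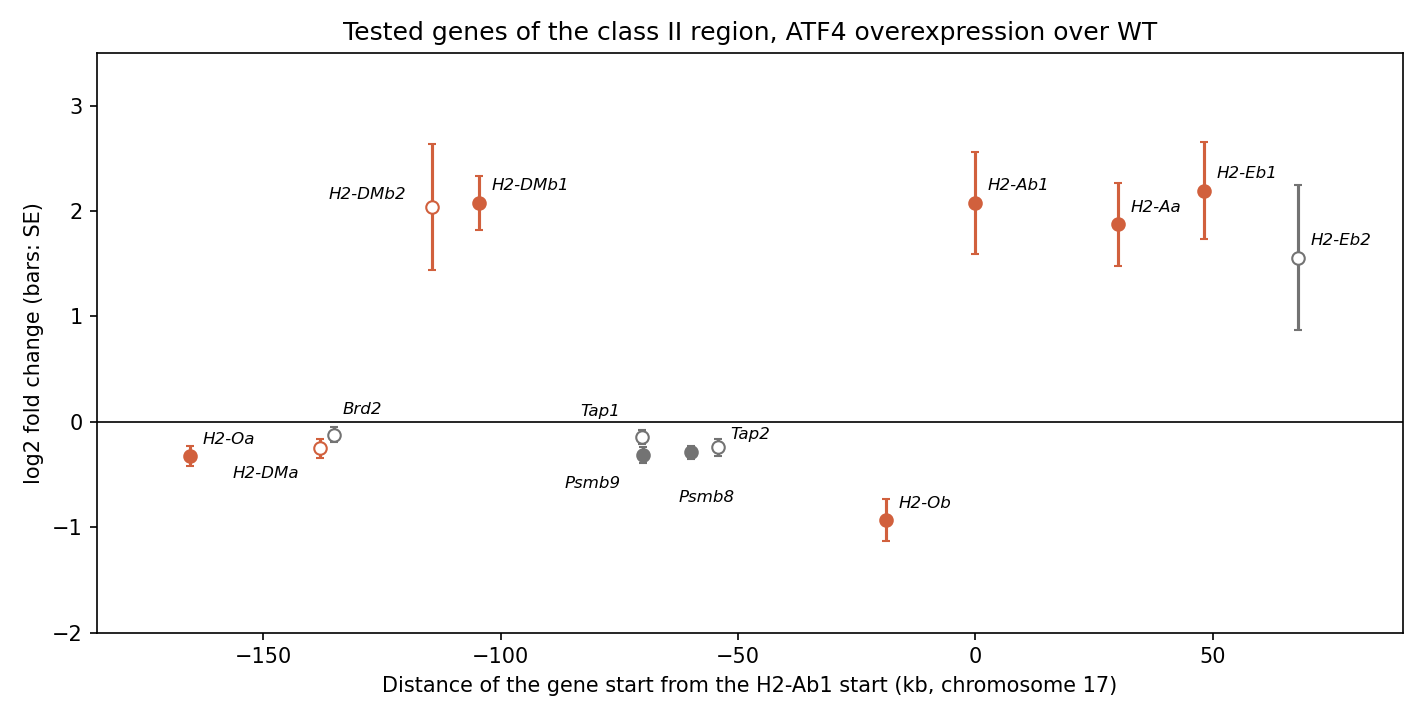
Log2 fold change with SE of the tested genes of the class II region by distance of their start from that of H2-Ab1, with class II members in orange, other genes in grey and filled points for adjusted p below 0.05. H2-DMb2 and H2-DMb1, and H2-Ab1 to H2-Eb2, lie above 1.5, with lower values between. The RNA gene Gm15821 (-0.65, adjusted p = 0.799), tested at 0.123 CPM in WT, is not drawn.

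Likeness to the mean log2 CPM of H2-Aa, H2-Ab1, H2-Eb1 and Cd74 was measured as Pearson's r over the 8 libraries, for 12397 genes whose mean level reached 1 CPM. The 10 most alike outside the class II genes were Plekha1 (0.995), Bcar3 (0.994), Pax5 (0.991), Fam43a (0.991), Blnk (0.990), Ric8b (0.989), Fcrla (0.989), Spats2 (0.986), Srpk3 (0.984) and Cd22 (0.983). Of these, 4 are in the B cell list: the transcription factor Pax5, the adaptor Blnk, Fcrla and the inhibitory receptor Cd22. Ciita had r = 0.989 to the same profile, H2-DMb2 0.982 and H2-DMb1 0.889. H2-Ob (-0.488), H2-DMa (-0.718) and H2-Oa (-0.777) had a negative r to it. Within each group, however, H2-Ob was higher in replicates 1 and 2 than in replicates 3 and 4, as were the genes of the profile. The points share the difference between groups, the library sets and their depth, so these values are descriptions.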

How the data were processed

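Estimated counts per gene were deposited by the authors, made with Salmon on GRCm38 p6 per the submitters' processing notes. Salmon divides reads shared between genes by a model. The sources used here give neither the annotation release nor the strand setting. All 8 columns were mapped to samples by library name and counts were rounded to whole numbers.

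The comparison used edgeR 4.0.16 under R 4.3.3, with its quasi-likelihood test (TMM scaling, filterByExpr, robust dispersions, group as the only term) over the whole table, which left 16630 genes. The same test was run on simulated data with a single dispersion for all genes and no library sets. These libraries do have sets, so that run does not show how the test behaves on them. CPM are counts over TMM-scaled library size, and SE were derived from the F statistic. The labels name no molecular identifiers, and the part of sequencing depth in these results was not tested. Alternatives were other scalings, DESeq2 1.42.0, limma-voom 3.58.1, filters, a replicate block, the library sets and leaving out libraries. No library repeated another (chi-square per degree of freedom at least 38.5 within a group).

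Same-numbered libraries of the groups deviated together from their group means (r from 0.46 to 0.55 across genes), so the numbers were taken to pair the samples. Libraries of the same set with different numbers also did (r from 0.28 to 0.43), so much of the correlation is shared by the set. The pairing comes from that correlation, and the labels do not state it.

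The genes and gene lists were chosen with earlier results of these data known. Some genes of the lists are not reported here and were left out of the lists' counts and sums. Named genes are the 10 class II genes and Atf4, the 3 genes with the smallest p of each list, and the 10 genes most like the classical chains. Others are named where a result turns on them, chosen after their values were seen. Coordinates are from GENCODE M21, counted from 1.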

Additional observations from a re-analysis of the deposited data

How the results depend on the processing

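The counts of genes called depended on the settings more than the directions did. Called higher were 6 in the reported fit, 2 with no filter on low counts (where 5.56% of tested genes were), 1 without the libraries in which low counts were scarce, and 3 to 7 when single libraries were left out (6.34% to 8.34% of tested genes), with 3 without WT replicate 3 (7.32%). Called lower were 2 in the reported fit, 1 with relative log expression factors (4.34% of tested genes), upper-quartile factors (3.87%), no filter (2.7%), the stricter filter (6.17%), the first library set alone (3.07%) or without the libraries in which low counts were scarce (1.94%), and 1 to 2 when single libraries were left out (3.02% to 3.96%). Fitting the replicate number as a block gave 7 higher and 3 lower, where H2-DMb2 and H2-DMa gained a call and no other class II gene changed. The term for a difference between library sets was called for 1 gene with no filter and for 0 to 1 when single libraries were left out.

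By longest transcript in place of exon union, the summed level of the 10 genes in WT was 117.9 in place of 81.6 CPM per kilobase. Leaving out single libraries gave 75.8 to 86.2 in WT and 149 to 209 in ATF4 overexpression. The ratio of the classical genes to B cell markers was 0.0780 in WT and 0.289 in ATF4 overexpression over the whole list, 0.370 and 0.914 without immunoglobulin genes, and 5.52 and 3.74 over the 3 defining markers, so its direction depended on the markers taken. Under upper-quartile scaling 9 of the 10 genes kept the smallest permutation p, against 10 otherwise. The cause of these changes was not tested. The lowest estimated count of any class II gene was 94.87 (H2-DMb1 in WT replicate 1).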
